A study of Mus musculus with 2 samples.

Results

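The clustered protocadherin genes are neighbouring genes on mouse chromosome 18 that fall into the Pcdha, Pcdhb and Pcdhg clusters. They were chosen by name: protein-coding genes of that chromosome in the GENCODE M21 annotation (genome build mm10) whose symbol starts with Pcdha, Pcdhb or Pcdhg. The rule found 57 of 21670 protein-coding genes, 14 Pcdha, 22 Pcdhb and 21 Pcdhg genes, all on the plus strand. M21 gives the symbol Pcdha11 to 2 of these genes. The earlier of them is Pcdha10 in RefSeq and is called so here.

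CTCF binding was mapped by ChIP-seq in lung tissue from newborn mice (postnatal day 0) of the strain B6NCrl. The series has 1 group of 2 replicates, with no treatment, genotype or other tissue to compare. Replicates 1 and 2 carry 1 biosample and 1 donor in the labels, which leaves it possible that their spread is technical; sex was not collected. A site is an entry of the authors' optimal list, which holds the peaks that passed their test of reproducibility between replicates (IDR). From 200000 bp before the first gene to 200000 bp after the last, 70 of 64732 sites were found.

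Clustered protocadherins are cell-surface adhesion proteins, known best from neurons, where the combination of isoforms on a cell gives it an identity. In the Pcdha and Pcdhg clusters each variable gene brings its own promoter and large first exon, which is spliced to constant exons shared by the cluster; the Pcdhb genes have a large exon of their own and no shared exons. CTCF, a zinc finger protein that binds DNA in an oriented way, is known together with cohesin to link promoters of these genes to enhancers. Those enhancers lie downstream of Pcdha and of Pcdhg. Most of the promoters carry a conserved element with the letters CGCT; Pcdhac2, Pcdhb1, Pcdhgc4 and Pcdhgc5 are known to lack it. Peaks do not measure expression, so the labelled tissue was not checked by marker genes here, and in bulk tissue fewer bound cells and less binding per cell cannot be told apart.

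In the optimal list, a CTCF site at the promoter was most common in the Pcdhg cluster and least common in Pcdha. A promoter site is one whose summit, the peak's highest point, lay within 1000 bp of the start (TSS) of a protein-coding transcript. Of the 57 clustered protocadherin genes, 41 had one, beside 39.8% of all protein-coding genes. By cluster this was 6 of 14 Pcdha, 16 of 22 Pcdhb and 19 of 21 Pcdhg genes. Of the 70 sites, 42 lay at these promoters, since Pcdha12 had 2. A further 2 lay in first exons, 4 between the genes and 2 downstream of Pcdha. After the first exon of Pcdhgc5 but before the end of the Pcdhg cluster lay 1. The flank before held 5 and the flank after 14. Per 100 kb, the Pcdha cluster (36930184 to 37187661) held 2.72 sites and the Pcdhb cluster (37264938 to 37524479) 6.55. The Pcdhg cluster (37661793 to 37841873) held 12.8 per 100 kb, counting the site after the first exon of Pcdhgc5. In the higher-scoring part of the list, the 32366 sites of highest signal, promoter sites remained at 12 of the genes, beside 19.2% of all genes: 1 Pcdha, 1 Pcdhb and 10 Pcdhg genes.

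**Figure D1:**
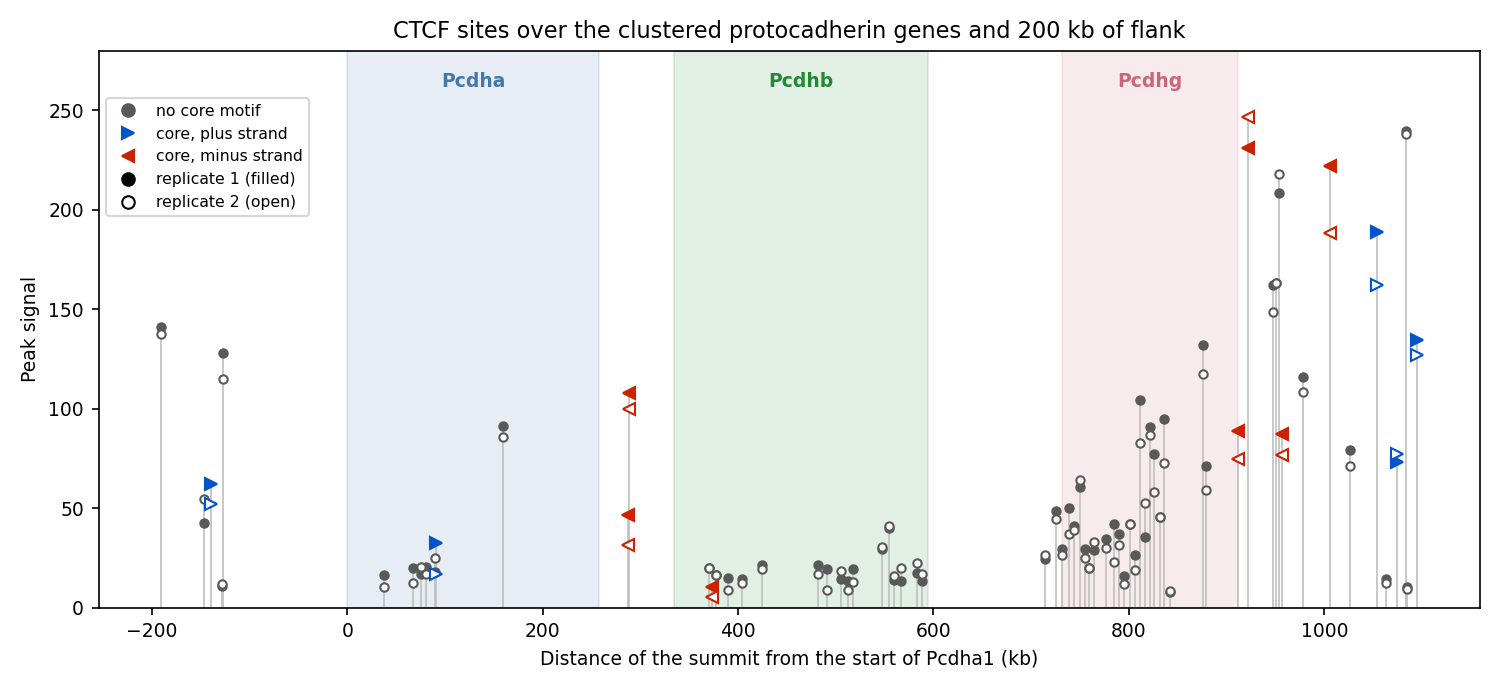
Signal of the 70 sites by distance of the summit from the start of Pcdha1 (kb), replicate 1 filled and replicate 2 open. Shading marks the 3 clusters, and triangles give the strand of the CTCF core motif where a site had it. Promoter sites of Pcdha and Pcdhb genes sit low, the later Pcdhg genes higher, and the sites after Pcdhg highest.

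Binding was weak at most promoters of the Pcdha and Pcdhb genes and stronger in Pcdhg. The signal is the authors' value per peak, on a scale that the labels do not state, and the value in a replicate is that of its highest peak within 100 bp of the summit. At the 42 promoter sites the median signal was 24.0 in replicate 1 and 21.3 in replicate 2. Over all 10482 promoter sites of protein-coding genes it was 31.4 and 29.2, and over all sites 40.8 and 37.5. By the signal of the pooled replicates, the median percentile among all sites was 33.2 for the clustered protocadherins and 41.4 for all promoter sites, and 12 of the 42 lay above the median of all sites. The medians were 19.9 and 17.1 for Pcdha, 17.0 and 17.1 for Pcdhb, and 41.0 and 37.4 for Pcdhg. The standard deviation of the log2 ratio of replicate 1 to replicate 2 was 0.51 over the 7 Pcdha, 0.47 over the 16 Pcdhb and 0.30 over the 19 Pcdhg sites. The ranges overlapped between all 3 clusters: 16.6 to 91.4, 13.4 to 40.2 and 15.9 to 132 in replicate 1, and 10.7 to 85.6, 8.76 to 40.9 and 11.9 to 117 in replicate 2.

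Pcdhac1 stood far above the other Pcdha genes. C-type genes lie last in their clusters; the other genes are known to be chosen cell by cell in neurons. The site of Pcdhac1 (37089865 to 37090045, summit 55 bp before the start) reached a signal of 91.4 and 85.6 in replicates 1 and 2. The next highest Pcdha sites were both at Pcdha12, at 32.5 and 17.1 for the site 541 bp after the start and at 18.1 and 24.9 for that 95 bp before it. The order of these last 2 sites turned between the replicates, so they do not differ beyond their spread. The lowest were Pcdha6 (16.6 and 10.7), Pcdha9 (19.9 and 12.2) and Pcdha10 (17.1 and 20.3), and Pcdha11 lay among them with 20.6 and 17.0. No Pcdha site but that of Pcdhac1 was above the median of all sites. Pcdhac2, the other C-type gene of the cluster, had no site within 1000 bp, and its nearest one was 53545 bp away.

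The Pcdhb promoters were low and alike, with Pcdhb17 on top. Its site (37484786 to 37485065) had a signal of 40.2 and 40.9, followed by Pcdhb16 (29.4 and 30.5), Pcdhb8 (21.6 and 19.5) and the rest. Pcdhb16 and Pcdhb17 were above every other Pcdhb site in both replicates. The lowest were Pcdhb13 (13.4 and 8.92), Pcdhb5 (15.1 and 9.08) and Pcdhb6 (14.5 and 12.4). The order below Pcdhb16 was not shared well by the replicates: over the 16 sites the rank correlation (Spearman's rho) between replicates was 0.39. It was 0.46 over the 7 Pcdha and 0.88 over the 19 Pcdhg sites, and the sites share 2 libraries.

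In Pcdhg the 3 highest sites lay in the later part of the cluster. Pcdhgc3, a C-type gene, had the strongest promoter site of all 3 clusters (37806219 to 37806446), at 132 in replicate 1 and 117 in replicate 2. Next came Pcdhgb6 (37741939 to 37742117) with 104 and 83.0, and Pcdhgb7 (37751461 to 37751622) with 90.9 and 86.9. Pcdhga12, chosen after its values were seen, overlapped them with 95.1 and 72.8. Near-identical sequence touches Pcdhgb6 and Pcdhgb7: of the 171 words of 31 letters around each summit, 44 and 47 also occur elsewhere in the genome, so reads there may have been placed with less certainty. The lowest Pcdhg sites were at Pcdhga8 (15.9 and 11.9), Pcdhgb2 (19.91 and 19.98) and Pcdhga9 (26.4 and 19.1). Pcdhga8 and Pcdhga9 lie shortly before Pcdhgb6, so weak and strong promoters were close neighbours. The 12 sites of the Pcdhga subfamily had medians of 35.0 and 31.6, and the 6 of the Pcdhgb subfamily 51.3 and 53.3, with overlapping ranges. Along the cluster, signal and position had a rank correlation of 0.47 in replicate 1 and 0.50 in replicate 2 (19 sites, described without a test). For Pcdha it was 0.82 in both (7 sites, 2 of them at Pcdha12), and for Pcdhb -0.29 and 0.33 (16 sites), opposite in sign between replicates. Genes without a site did not enter these correlations.

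**Figure D2:**
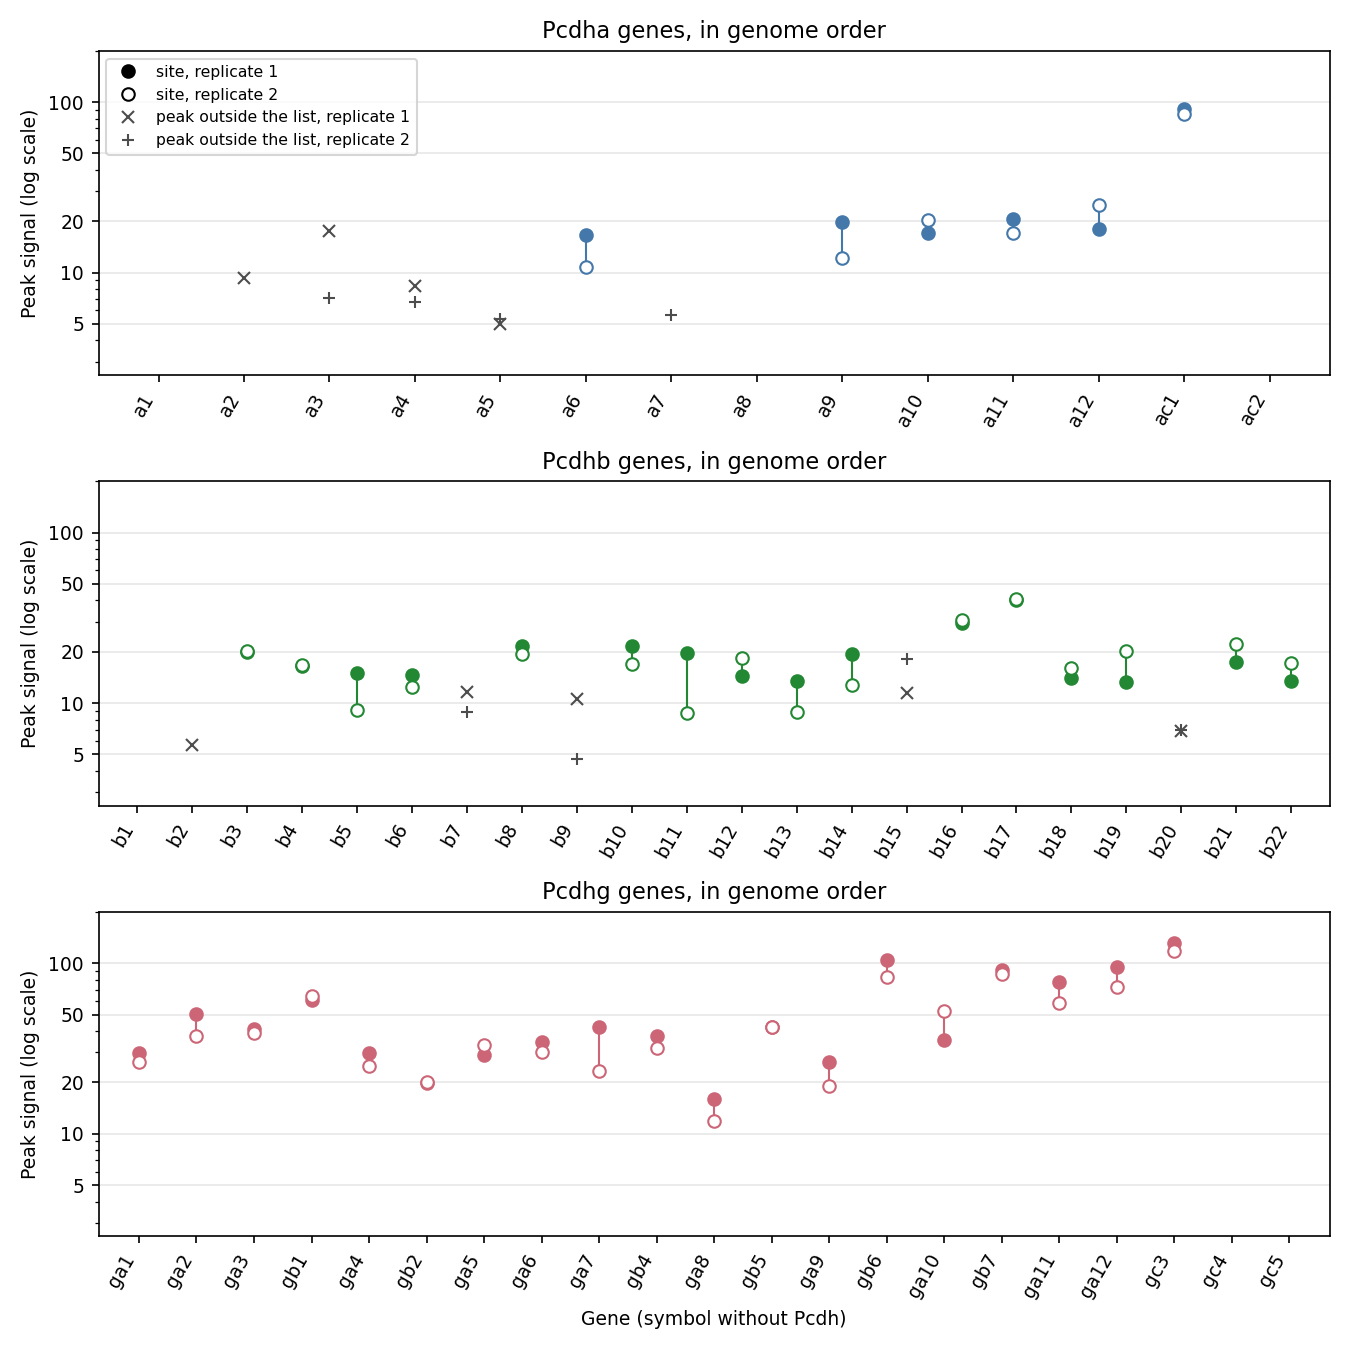
Signal at the promoter of each gene (log scale) in genome order, replicate 1 filled and replicate 2 open, with the site nearest the start shown for Pcdha12. Crosses give the replicate values of peaks in the 200 bp before the start that are outside the optimal list; genes with no mark had no such peak. Pcdhgc3, Pcdhgb6, Pcdhac1 and Pcdhgb7 reach highest; Pcdhga10, between Pcdhgb6 and Pcdhgb7, is lower at 35.6 and 52.7.

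Nearly all promoter sites lay in the same narrow stretch before the start. The median summit was 56.5 bp before the start, with quartiles of -80.25 and -40.5 bp relative to it. Of the 42 summits, 39 (92.9%) lay in the 200 bp before the start, beside 29.0% of all promoter sites, whose median was 13 bp before the start with quartiles from -184.75 to 227. The medians of the clusters were -64 bp for Pcdha, -57.5 for Pcdhb and -55 for Pcdhg. The 3 summits after the start were those of Pcdhb17 (131 bp), Pcdhga12 (319 bp) and the further site of Pcdha12 (541 bp). For Pcdhb17 the position depends on the annotation, since its RefSeq start, on the same build, puts the summit 95 bp before the start.

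**Figure D3:**
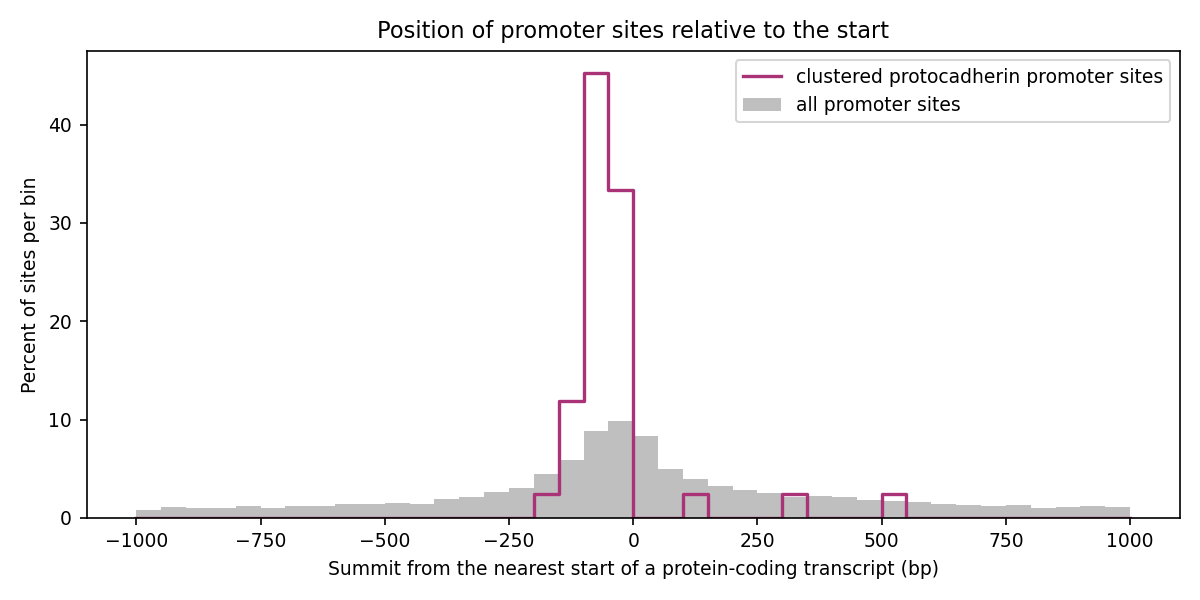
Distance of promoter summits from the nearest start of a protein-coding transcript in bins of 50 bp, in percent of sites, for the 42 clustered protocadherin sites (line) and all 10482 promoter sites (bars). The line peaks in the 100 bp before the start, while the bars spread to both sides.

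Few of these promoter sites matched the usual CTCF motif as searched, which does not show that the motif is absent. Its core of 12 letters was searched within 50 bp of the summit on both strands, with up to 1 mismatch. Only 1 of the 42 promoter sites (2.38%) had it, beside 20.6% of all promoter sites and 48.3% of all sites. That site was the one 541 bp after the start of Pcdha12, with the core in the direction of transcription. With 2 mismatches allowed, 9 of the 42 sites had the core, beside 50.7% of all promoter sites. It was in the direction of transcription at 3 of them, all Pcdha sites. At 3 it was against it, 2 Pcdhb sites and 1 Pcdhg site, and the others matched both strands equally. Pcdhac1, Pcdhgc3, Pcdhgb6 and Pcdhgb7, the strongest promoter sites, had none with up to 1 mismatch. A longer weight matrix of 21 positions, refined on sites of other chromosomes, called 0 of the 42 sites. This was beside 13.8% of all promoter sites and 42.8% of all sites. Without its threshold, the best-scoring word lay in the direction of transcription at 35 of the 42 sites, beside 53.0% of all promoter sites: 7 of 7 Pcdha, 15 of 16 Pcdhb and 13 of 19 Pcdhg sites. The matrix score did not follow the signal among these sites. Its rank correlation with the pooled signal was -0.44 over the 42 sites and 0.45 over all promoter sites; within Pcdha, Pcdhb and Pcdhg it was 0, 0.12 and 0.06. The median score was higher in Pcdha (5.27) and Pcdhb (3.48) than in the Pcdhg cluster (-5.53), where the signal was highest. Over all promoter sites the median score was 2.45. Sites of a cluster share related sequences, so they are not independent.

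The promoters themselves shared letters that the choice by name did not use. In the stretch from 250 bp before to 50 bp after the start, CGCT on the sense strand was found at 50 of 57 genes, beside 51.8% of all promoters. It was found at 36 of the 41 genes with a site and at 14 of the 16 without, so its presence did not separate them. TATAAA on the sense strand was found at 7 of the 57, beside 8.79%, and the CTCF core at 0 of the 57, beside 4.77%. The core ends in C and CGCT begins with C, so these words can share a letter and were not searched as unrelated. The matrix of 21 positions also reads letters after the core. A match is a description, not a bound element. The median GC content was 39.7%, beside 55.3% over all promoters.

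No site was found within 1000 bp of 16 genes. These were Pcdha1, Pcdha2, Pcdha3, Pcdha4, Pcdha5, Pcdha7, Pcdha8 and Pcdhac2 in the Pcdha cluster. In the Pcdhb cluster they were Pcdhb1, Pcdhb2, Pcdhb7, Pcdhb9, Pcdhb15 and Pcdhb20, and in the Pcdhg cluster Pcdhgc4 and Pcdhgc5. The first 5 Pcdha genes lay in a gap of 164.553 kb without a site, from 36803032 to 36967585, and 3.85% of all gaps between neighbouring sites in the genome were as long. Gaps of 127.525 kb around Pcdhac2, 125.993 kb after Pcdhb22 and 82.32 kb around Pcdhb1 and Pcdhb2 followed, beside a median of 13.2 kb over the genome and 7.18 kb in the region.

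Many of these genes had a peak that fell outside the optimal list. The authors' pooled list, made from both replicates without the IDR threshold, had a peak in the 200 bp before the start of 48 of the 57 genes, beside 20.4% of all genes. By cluster these were 11 of 14 Pcdha, 19 of 22 Pcdhb and 18 of 21 Pcdhg genes. In the optimal list it was 38 of the 57, beside 10.4% of all genes. Of the 16 genes without a site, 10 had such a pooled peak. The remaining 6 were Pcdha1, Pcdha8 and the genes known to lack the conserved element, Pcdhac2, Pcdhb1, Pcdhgc4 and Pcdhgc5. This depends on the stretch of 200 bp. Within 1000 bp of a start, Pcdhgc4 had a pooled peak of 14.5 (10.3 in replicate 1 alone). Pcdhac2 had one of 6.04 (6.16 in replicate 2 alone). The letters CGCT alone do not mark the element: Pcdha1, Pcdha8, Pcdhb1 and Pcdhgc4 had them on the sense strand in the stretch searched, while Pcdhac2 and Pcdhgc5 did not. The highest of the 10 pooled peaks was at Pcdhb15, with a pooled signal of 31.9 and replicate values of 11.5 and 18.2. This is above the lowest promoter site inside the list, that of Pcdhb13 at a pooled signal of 24.7. Pcdha3 followed with 25.4 (17.5 and 7.10), and Pcdhb7 with 20.6 (11.6 and 8.84), which the authors' conservative IDR list includes. Others were weak: Pcdha2 and Pcdhb2 had a peak in replicate 1 alone (9.26 and 5.66), and Pcdha7 in replicate 2 alone (5.60).

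Within the Pcdha genes a further series of weak peaks lay inside the large first exon. In the stretch from 300 to 1000 bp after the start, chosen after the peaks were seen, the pooled list had a peak at 8 of 14 Pcdha genes, beside 35.0% of all genes. Their summits lay from 470 to 593 bp after the start, and 7 of the 8 had the CTCF core, all in the direction of transcription. Over all genes, 6.93% of such peaks had the core, and where it was on 1 strand 50.7% were in the direction of transcription. The strongest was Pcdha12, with a pooled signal of 50.5 and replicate values of 32.5 and 17.1. It was the only one in the optimal list, so 1 of 14 Pcdha genes had a site there, beside 10.5% of all genes. Next came Pcdha4 with 20.6 (8.78 and 12.2), Pcdha6 with 13.4 (6.99 and 5.83), and Pcdha7 with 11.4 (4.77 and 6.78). The remaining 4 had a peak in 1 replicate alone: Pcdha5 (6.05), Pcdha9 (4.90) and Pcdha11 (4.09) in replicate 2, and Pcdha10 (3.93) in replicate 1. The weakest in the pooled list was Pcdha9 with 5.97. Pcdha11 had a peak 569 bp after its start without the core. The letters of the core were there more widely than the peaks: 10 of 14 Pcdha genes had it in this stretch, 9 of them in the direction of transcription, beside 6.86% of all genes. Pcdha1 and Pcdha8 had the letters and no pooled peak in either stretch. In Pcdhb 1 of 22 and in Pcdhg 2 of 21 genes had the core there, and of their 4 and 6 pooled peaks 0 had it.

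**Figure D4:**
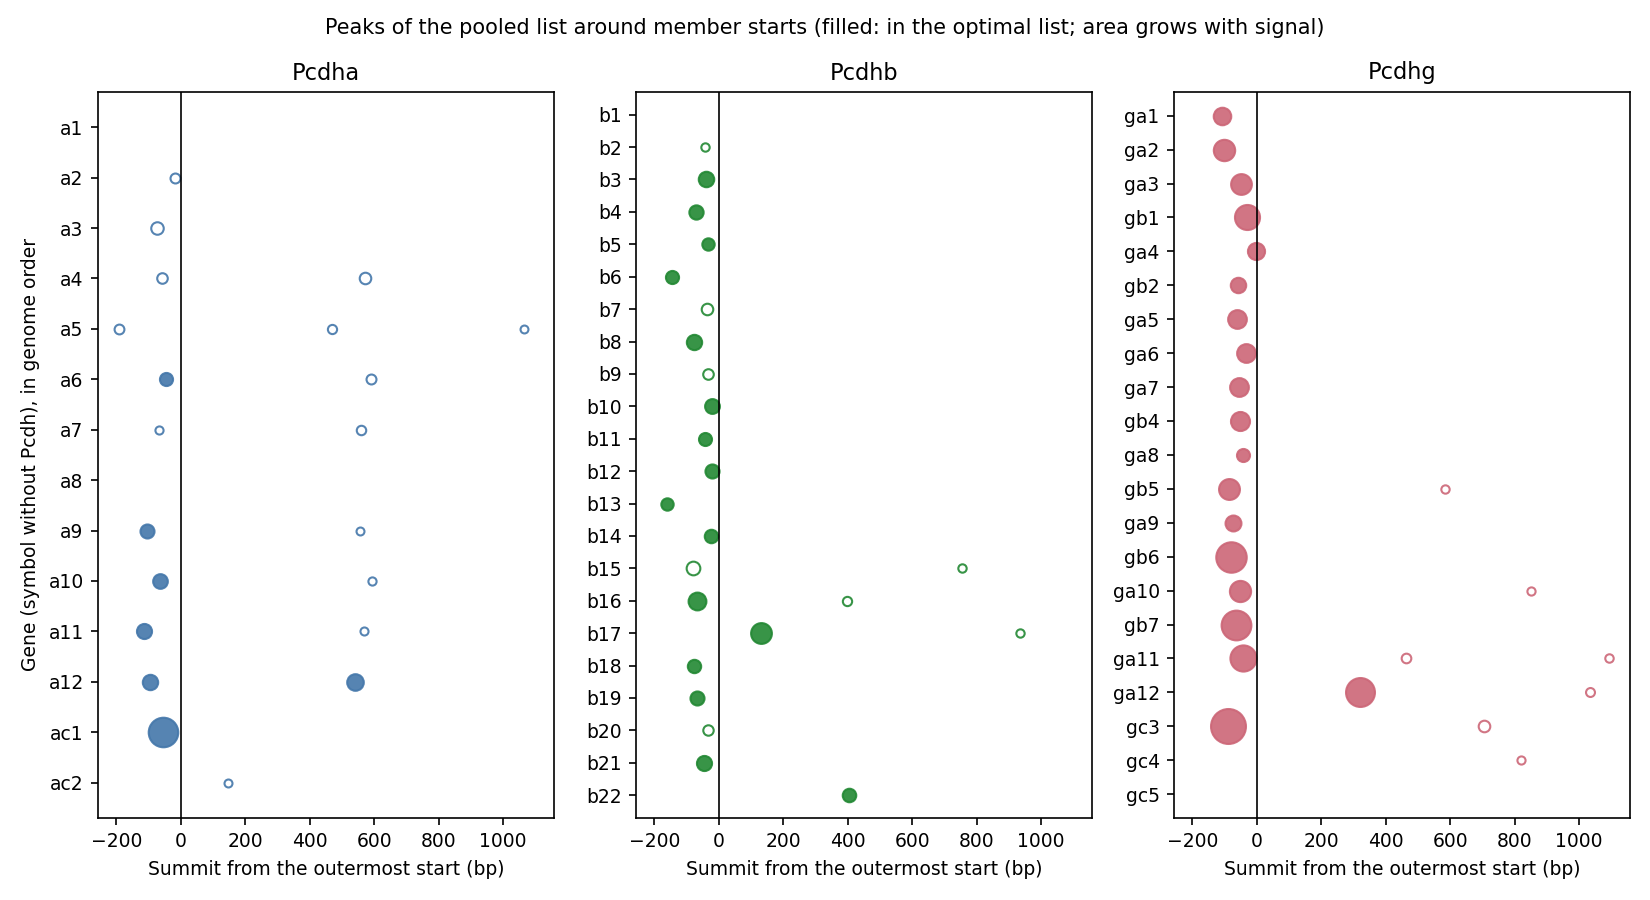
Peaks of the pooled list around the outermost start of each gene (bp), genes in genome order. Filled circles are in the optimal list, open ones are not, and the area grows with the pooled signal. A column of peaks before the start runs through all 3 clusters, and 8 Pcdha genes have another peak 470 to 593 bp after the start; Pcdhb22 has a later start that its site precedes by 83 bp.

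Inside the clusters few sites lay away from promoters. In the first exon of Pcdhgc3, 2547 bp after the start, a site (37808899 to 37809029) had a signal of 71.4 and 59.0. In the exon of Pcdhb3, 2420 bp after the start, a weak site (10.3 and 5.54) had the core against the direction of transcription, and 28 of its 171 words of 31 letters occur elsewhere. Pcdhgb8, which the annotation calls a polymorphic pseudogene and which therefore is not among the 57, had a site 134 bp before its start (37761576 to 37761719) with 45.6 in both replicates and no core. A weak site 6563 bp after the start of Pcdhga12 had 7.95 and 8.40. Between the Pcdhb and Pcdhg clusters, Taf7, a subunit of the general transcription factor TFIID, had a promoter site 65 bp before its start (24.3 and 26.8). A site at 37655559 to 37655660, within the gene 3222401L13Rik, had 48.8 and 44.8. The other protein-coding genes between the members, Slc25a2, Gm42416, Gm37013 and Gm37388, had no promoter site.

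In the downstream stretches, after the first exon of Pcdhac2 and after that of Pcdhgc5, each site had the core on the minus strand. Enhancers of these genes are known to lie downstream of Pcdha and of Pcdhg. The Pcdha stretch, of 118.409 kb, held 1.69 sites per 100 kb. The Pcdhg stretch, cut at the next gene, was 21.468 kb long and held 4.66, beside 5.34 over the whole region. Between the first exon of Pcdhac2 and the start of Pcdhb1 lay 2 sites less than 1 kb apart. The stronger (37218332 to 37218519) had a signal of 108 and 99.8, above Pcdhac1 in both replicates, and the core with 1 mismatch. The weaker (37217343 to 37217622) had 46.7 and 31.8 and an exact core. Between the first exon of Pcdhgc5 and the next gene lay 1 site (37841376 to 37841559), with 88.9 and 74.9. It had the core with 1 mismatch, and 32 of 171 words of 31 letters were found elsewhere. This site lay before the annotated end of the Pcdhg cluster at 37841873, not beyond the cluster. The sites were not matched to published enhancer positions.

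The strongest CTCF sites of the region lay after the Pcdhg cluster, in and beyond Diaph1, which encodes a formin that builds actin filaments. In the flank after, 12 of 14 sites were above the median of all sites, and the median signal was 148 and 138. Inside Diaph1 lay 6 sites, with 87.6 to 231 in replicate 1 and 77.0 to 247 in replicate 2. The strongest of them (37852141 to 37852501) had 231 and 247, at percentile 99.3 of all sites, with the core on the minus strand. Next inside Diaph1 was a site at 37883487 to 37883852 with 208 and 218. The highest of the flank by mean rank (38013764 to 38014056), nearest to the start of Arap3, which encodes a GTPase-activating protein, had 240 and 238 and no core. Of the genes after the cluster, Diaph1 had a promoter site (222 and 188, core on the minus strand), as did Rell2 (79.4 and 71.3). Hdac3, Fchsd1 and Arap3 had none. In the flank before, the highest sites were in Tmco6 (36739879 to 36740088; 141 and 138), 9156 bp from a start of Zmat2 (36802925 to 36803130; 128 and 115) and inside Hars2 (36790290 to 36790418; 62.3 and 52.4, exact core on the plus strand). Hars and Hars2, which encode histidyl-tRNA synthetases of the cytosol and the mitochondria, shared a promoter site (42.4 and 54.7), and the other 6 genes there had none.

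The strands of the 12-letter core followed an order along the region that the refined weight matrix shared only in part. Of the 28 sites that were not at a promoter of the clustered genes, 11 had the core, 4 on the plus and 7 on the minus strand. The 7 minus cores, with the weak site in the exon of Pcdhb3 among them, followed each other without a plus core between them. They ran from the sites downstream of Pcdha to the promoter of Diaph1. Over that stretch the refined matrix called minus matches alone, at 37217343 to 37217622, 37772003 to 37772282, 37841376 to 37841559 and 37887080 to 37887251. By the refined matrix, minus matches also lay before the clusters, at 36802925 to 36803130, and among the plus cores after Diaph1, at 37993631 to 37993910 and 38013764 to 38014056. The plus cores of 12 letters were 1 in Hars2, before the clusters, and 3 after Diaph1, at 37984343 to 37984602 (189 and 162), 38004547 to 38004709 (73.3 and 77.5) and 38024949 to 38025149 (134 and 127). At the Pcdha exon peaks that had the core it was on the plus strand, and at the sites downstream of Pcdha on the minus strand; the letters alone were on the minus strand after the start of Pcdhac1, which had no exon peak.

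Other genes of the family and the machinery were set beside the clusters by the same promoter rule, which 39.8% of all protein-coding genes met. Non-clustered protocadherins, related adhesion proteins outside the clusters, had a promoter site at 7 of 12 genes. Pcdh1, which lies later on chromosome 18 (38212729 to 38213020; 240 and 233), was highest, then Pcdh7 (81.1 and 71.1) and Pcdh18 (46.7 and 70.0). Classical and related cadherins, calcium-dependent adhesion proteins, had one at 9 of 19, led by Cdh24 (181 and 182), Cdh11 (66.7 and 61.2) and Cdh22 (65.2 and 46.3). Of 12 genes known to regulate the clusters, 9 had one, led by the cohesin subunits Stag1 (202 and 206), Smc3 (139 and 147) and Stag2 (125 and 134). Ctcf itself had a site with 26.1 and 46.5. These shares were 58.3%, 47.4% and 75%. The Pcdhg share, 19 of 21, was above all of them, and the Pcdha share, 6 of 14, below all. The Pcdhb share, 16 of 22, was below that of the regulators alone. The differences were not tested.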

How the data were processed

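The deposited files are peak lists on mm10 (GRCm38): 1 list per replicate, 1 of pooled replicates, each of 300000 peaks, and the conservative and optimal IDR lists. Each peak has the authors' signal value, a deposited −log10 q-value and a summit offset from the peak start; the signal and summit were used. Not given in the sources used here are the aligner, the peak caller, the IDR threshold and the scaling of the signal, and the depth in reads is unknown, so no interval is given. Python 3.11.15, pandas 2.3.3, numpy 2.4.6 and scipy 1.17.1 were used. The 64732 of 64742 optimal sites on the main chromosomes were kept. Genes and starts came from GENCODE M21 protein-coding transcripts. Percentiles rank the pooled signal among all sites. The core and the promoter rule were tested on simulated data. The matrix threshold is the level that 1% of windows 1000 bp from sites pass.

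With 1 group no test was made. The members, lists and windows were chosen with earlier results of these data known. Named are genes without a site, C-type genes, the 3 highest and 3 lowest promoter sites of each cluster by mean rank, the sites in the downstream stretches, the genes between, the 3 highest sites of each flank, the 3 strongest of each other list, and Ctcf; any other gene named was chosen after its values were seen. Alternatives were other site lists, distances, motif settings and each replicate alone.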

Additional observations from a re-analysis of the deposited data

Results flagged for a closer look

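The pooled list had peaks at the clustered protocadherins that the site counts mostly leave out. Of the 16 genes without a site, 10 had such a peak in the 200 bp before the start, and 8 Pcdha genes had a pooled peak 300 to 1000 bp after the start, of which that of Pcdha12 is also in the optimal list. The series as given has no control samples, so these peaks were set beside all protein-coding genes, of which 20.4% and 35.0% had a pooled peak in the same stretches. Pooled signals were 6.61 to 31.9 for the former and 5.97 to 20.6 for the latter without Pcdha12 (50.5).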

How the results depend on the processing

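With only the 32366 sites of highest signal, promoter sites remained at 12 genes, 1 Pcdha, 1 Pcdhb and 10 Pcdhg, and the region held 34 sites, with 1, 1 and 10 at Pcdha, Pcdhb and Pcdhg promoters, 1 in a first exon and 2 between genes. In the pooled list without IDR, added after seeing the data, 12 of 14 Pcdha, 21 of 22 Pcdhb and 20 of 21 Pcdhg genes had a promoter peak, beside 69.9% of all genes, so Pcdhg no longer stood above Pcdhb. First exons held 1 site in the conservative list and 1 with either replicate left out; without replicate 1 the Pcdhg downstream stretch held 2. Sites with the core numbered 9 with 2 mismatches and 0 with the refined matrix, also added later. The median distance was -60 bp in the conservative list and ranged from -56 bp to -52 bp with a replicate left out. The other alternatives kept each count within 1.5 times and each median within the replicate spread. No paired analysis was possible because there is 1 group. The unknown scaling and depth limit weak peaks most: where no site was called, binding may be below what these libraries detect.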
